A study of Mus musculus with 170 samples.

Results

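Lung gene expression was compared between mice given smoke condensate from flaming eucalyptus and mice given the condensate from smoldering eucalyptus, with tissue taken 4 h after exposure. The 12 libraries compared, 6 of each burn phase, were all those labelled with this fuel, tissue and time, out of 170 in the study. Every animal was a female CD-1 mouse, an outbred laboratory stock. Each of the 12 mice received 50 µL of saline holding 2 mg/mL of particulate matter, placed at the back of the throat so that it was aspirated into the lungs, and both phases were therefore given at the same particle mass. By their titles each library was a separate mouse and all 12 were on the same plate. Levels in the 6 lungs given saline alone for 4 h are quoted as background. They did not enter the comparison itself, but they are among the libraries of 2 wider fits given as alternatives. Those fits, of all 4 h lungs and of all lungs, also hold lungs given the other smokes and lungs given LPS (lipopolysaccharide). The dose of any single compound in the condensates was not given in the sources used here, so that the burn phase and the composition of its condensate cannot be told apart.

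Burning wood releases polycyclic aromatic hydrocarbons, several of which bind the aryl hydrocarbon receptor (AhR), a transcription factor kept in the cytoplasm by a chaperone complex. The bound receptor enters the nucleus, pairs with the protein ARNT, and switches on genes that carry its core motif, above all the cytochrome P450 genes Cyp1a1 and Cyp1b1, whose enzymes oxidise the same compounds. In lung, Cyp1a1 is a common marker of exposure to combustion products. The quinones and oxidants that arise from that oxidation act on a second regulator, Nrf2, and Nqo1, which encodes a quinone reductase, answers to both.

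The 12 libraries held 5.97 to 7.53 M counts. Flame replicate 3 stood apart from the other 11. It had counts in 13734 genes against 14852 to 15589 in the others, a median rank correlation with the other libraries of 0.848 against 0.954 to 0.972, and a scaling factor of 0.714 against 0.976 to 1.07. The main results are given below with and without it. Lung markers were high in both groups: Sftpc, the surfactant protein of alveolar type 2 cells, ran from 2448 to 4613 CPM (counts per M counts, scaled by edgeR's TMM factors) after smolder and from 2903 to 11367 CPM after flame, and Scgb1a1, the club cell secretory protein, from 25942 to 48983 and from 23407 to 43135 CPM. Pnlip, a pancreatic lipase and a marker of foreign tissue, was at or below 0.278 CPM. In whole lung, fewer cells of a type and less RNA per cell cannot be told apart.

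Across the lung transcriptome a single gene passed the test between the phases. Of 12736 genes tested with edgeR's quasi-likelihood test, 1 passed at an adjusted p under 0.05 (0.00785% of the genes, and 0.00785% also when only rises are counted), and that gene was Cyp1a1, which was higher after flaming smoke. At an unadjusted p under 0.05 there were 928 genes (7.29%), of which 570 were higher (4.48% of all genes tested) and 358 lower after flame. The groups did not overlap for 45 genes (0.353%), with all 6 flame lungs above all 6 smolder lungs for 24 genes (0.188%) and below them for 21 (0.165%). The median log2 difference over all genes was 0.01, and 51.6% of the genes were higher after flame. Without flame replicate 3, 751 of 12884 genes (5.83%) were at an unadjusted p under 0.05, and 4 passed (0.0310%): Cyp1a1, Cyp1b1, Nqo1 and Selenbp2. DESeq2's Wald test called 8 genes (0.0628%), a fit with all 70 lung libraries of 4 h called 3 of 14099 (0.0213%) and a fit with all 140 lung libraries called 2 of 14458 (0.0138%). Cyp1a1 and Cyp1b1 were among the calls of each of these 4 fits.

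**Figure D1:**
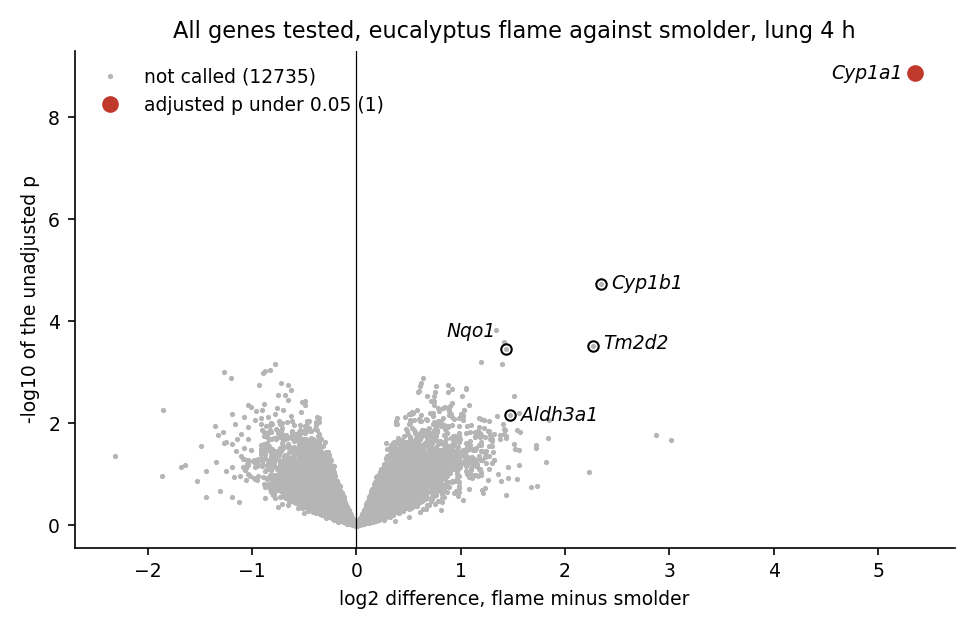
Unadjusted p of edgeR's test (−log10, vertical axis) against the log2 difference of flame minus smolder (horizontal axis) for the 12736 genes tested in 4 h lung, 1 point per gene, with the called gene in red and 4 genes described in the text circled. Cyp1a1 stands alone at 5.35, and 165 genes, with Cyp1a1 among them, were more than 2-fold higher and 51 more than 2-fold lower after flame.

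The promoters of Cyp1a1 and Cyp1b1 are shown because these are the classical genes of the receptor and because both windows hold the 5 letters of its core motif. Each sequence is the 250 bases before the RefSeq start site in GRCm38.p6, written 5′ to 3′ on the gene's own strand, with the core motif (GCGTG, or CACGC where it lies on the other strand) in capitals. The first base of the motif was 54 bases before the start site for Cyp1a1 (chr9:57697363-57697612, plus strand) and 76 bases before it for Cyp1b1 (chr17:79715062-79715311, minus strand).
Cyp1a1: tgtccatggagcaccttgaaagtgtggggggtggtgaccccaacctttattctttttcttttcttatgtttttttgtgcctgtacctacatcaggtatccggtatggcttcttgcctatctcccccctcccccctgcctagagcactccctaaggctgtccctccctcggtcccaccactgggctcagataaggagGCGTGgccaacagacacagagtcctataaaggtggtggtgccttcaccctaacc
Cyp1b1: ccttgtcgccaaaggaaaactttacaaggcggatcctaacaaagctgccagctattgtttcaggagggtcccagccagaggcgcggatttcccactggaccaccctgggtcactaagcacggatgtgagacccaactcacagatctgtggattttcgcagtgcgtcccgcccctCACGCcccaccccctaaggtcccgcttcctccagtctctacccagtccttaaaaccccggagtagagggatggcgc
The motif, in either orientation, was present in 28.2% of all 32851 RefSeq windows of the same length, so that holding it is common. The window of Nqo1 did not hold these letters. The RefSeq table matched 3 of the 5 genes sought, and not Tm2d2 or Aldh3a1. These are matches of 5 letters alone. The bases beside them and the sequence beyond the windows were not examined, so the matches need not be sites of the receptor. They describe the sequence and do not show binding.

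In the 6 flame lungs Cyp1a1 stood at 767, 684, 563, 506, 518 and 502 CPM, in replicate order. In the 6 smolder lungs it stood at 25.7, 13.4, 7.91, 9.12, 5.22 and 25.3 CPM. The lowest flame lung was therefore far above the highest smolder lung, and the groups did not overlap. The saline lungs ran from 4.99 to 34.98 CPM with a median of 8.74, a range that covered all of the smolder lungs. The means were 590 ± 110 CPM after flame and 14.4 ± 8.97 CPM after smolder (SD, n = 6 each), a difference of 5.35 ± 0.39 on the log2 scale (SE), or 40.8-fold (95% interval 22.8 to 73.2), with an adjusted p of 1.74e-05. The raw counts behind these levels were 2396 to 5378 per flame library and 39 to 185 per smolder library. The call held when each of the 12 libraries was left out in turn, with differences between 5.18 and 5.59, and was 5.36 ± 0.38 without flame replicate 3 (adjusted p = 1.02e-05).

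Like values came from 2 of the probes for Cyp1a1. The table has 3 probes for this gene, which share the animals and so are no replicates. Probe 29719 read 265 ± 27.9 CPM after flame and 6.36 ± 3.98 CPM after smolder, a log2 difference of 5.39 ± 0.37. Probe 79654 read 325 ± 86.9 CPM and 8.08 ± 5.61 CPM, a log2 difference of 5.34 ± 0.43. The third probe never exceeded 0.132 CPM in these lungs. Tested alone, these 2 probes were the only ones called among 17943 probes (0.0111%).

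**Figure D2:**
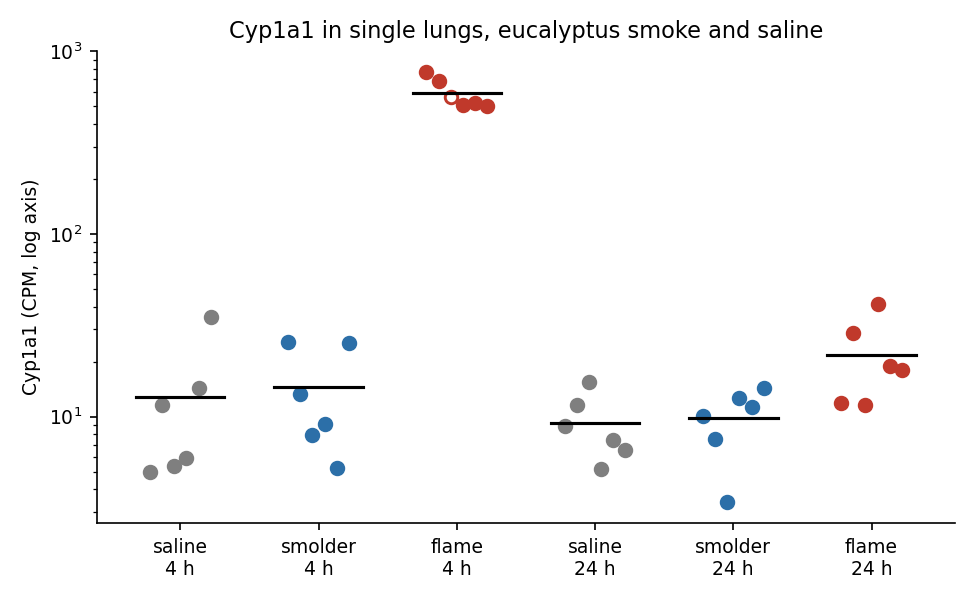
Cyp1a1 in each lung, in CPM on a log axis, after saline, smoldering eucalyptus and flaming eucalyptus at 4 h and at 24 h, with 1 point per animal, the 4 h flame replicate 3 hollow and the group mean as a line. All 6 flame lungs of 4 h lie between 502 and 767 CPM, and no other lung shown exceeds the 41.3 CPM of a 24 h flame lung.

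Cyp1b1, the related P450 enzyme, was about 5 times as high after flame, without passing the test over all 12 libraries. The flame lungs held 44.2, 48.9, 181, 44.6, 54.1 and 95.8 CPM, and the smolder lungs 23.3, 10.95, 17.1, 17.9, 10.6 and 12.3 CPM. Every flame lung was above every smolder lung, and flame replicate 3 was the highest. The log2 difference was 2.34 ± 0.37, or 5.07-fold (95% interval 2.91 to 8.83), with an adjusted p of 0.118. Leaving out replicate 3 lowered the difference to 1.91 ± 0.25 and the adjusted p to 0.0139, past the threshold. The gene also passed in DESeq2 (adjusted p = 1.94e-06), in the fit of all 4 h lungs (adjusted p = 0.00579) and in the fit of all lungs (adjusted p = 0.00664). In saline lungs the median was 7.12 CPM and the highest 23.1 CPM.

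Nqo1, the quinone reductase, showed 1 flame lung at the smolder level. The values after flame were 86.4, 78.6, 25.1, 98.7, 44.8 and 54.6 CPM, and after smolder 38.9, 18.6, 26.8, 23.01, 19.5 and 17.3 CPM. Flame replicate 3 was the low one, and the other 5 flame lungs were above all 6 smolder lungs. The log2 difference was 1.43 ± 0.31 (2.70-fold, adjusted p = 0.619), and without replicate 3 it was 1.59 ± 0.24 (3.02-fold, adjusted p = 0.0295). DESeq2 called the gene with all 12 libraries (adjusted p = 0.0134). All 6 smolder lungs were above the highest saline lung, 14.1 CPM, a comparison that was not tested here.

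Aldh3a1, an aldehyde dehydrogenase and another target of the receptor, had the same low library. It stood at 93.3, 107.2, 23.2, 231, 109.3 and 99.9 CPM after flame and at 40.2, 33.2, 40.8, 74.4, 41.4 and 9.04 CPM after smolder. Replicate 3 was below 5 of the 6 smolder lungs, and the other 5 flame lungs were above all of them. The log2 difference was 1.48 ± 0.47 (adjusted p = 0.619), or 1.69 ± 0.37 without that library (adjusted p = 0.506), and the gene did not pass in either fit. Saline lungs lay between 19.7 and 59.8 CPM.

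**Figure D3:**
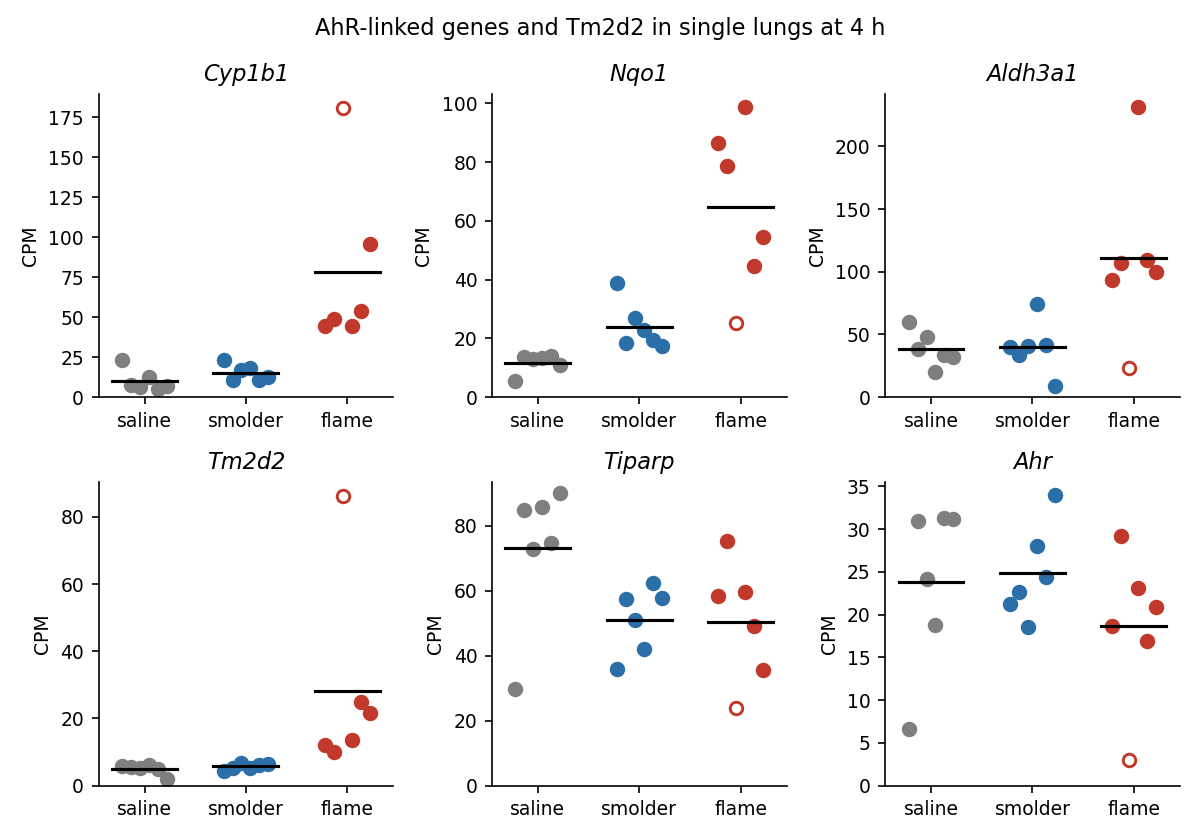
Levels of Cyp1b1, Nqo1, Aldh3a1, Tm2d2, Tiparp and Ahr in each 4 h lung (CPM, linear axis from 0) after saline, smoldering eucalyptus and flaming eucalyptus, with 1 point per animal, flame replicate 3 hollow and the group mean as a line. Replicate 3 is the highest flame lung for Cyp1b1 (181 CPM) and Tm2d2 (86.2 CPM) and the lowest for Nqo1 (25.1 CPM), Aldh3a1 (23.2 CPM), Tiparp (24.0 CPM) and Ahr (3.05 CPM).

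The other members of the receptor's target list did not pass the test or were too low to be tested. Of the 12 listed targets 8 could be tested, 1 rose (Cyp1a1), 0 fell and 7 did not pass, against the background of 0.00785% given above. The median log2 difference of the 8 was 0.93, beside 0.01 over all genes, and 5 of the 8 (62.5%) were at an unadjusted p under 0.05, beside 7.29% of all genes. Without flame replicate 3 the list median was 0.99 and 3 members passed (Cyp1a1, Cyp1b1 and Nqo1), beside 0.0310% of all genes. The median was 0.42 in the fit of all 4 h lungs, 0.41 in the fit of all lungs and 1.43 with no filter on low counts. Tiparp, an ADP-ribosyltransferase that feeds back on the receptor, ran from 24.0 to 75.4 CPM after flame (median 53.8) and from 35.8 to 62.5 CPM after smolder (median 54.3). These ranges overlapped and the difference was −0.02 ± 0.24, with a 95% interval from −0.54 to 0.51. Ugt1a6a, a glucuronosyltransferase, differed by 0.24 ± 0.21 (0.39 ± 0.14 without replicate 3, its lowest flame lung), Cyp2s1, a P450 of airway epithelium, by 0.26 ± 0.31 (0.06 ± 0.28 without replicate 3, its highest flame lung), and Nfe2l2, which encodes Nrf2, by 0.42 ± 0.18, none past the test. Nfe2l2 stood at 39.5 to 62.8 CPM after flame and 26.2 to 47.1 CPM after smolder, and its saline range of 45.4 to 61.5 CPM lay in the flame range. The 4 untested targets were at the floor. Cyp1a2, a P450 made chiefly in liver, had 0 counts in all 12 lungs, Ahrr, the receptor's repressor, read 0.470 CPM in flame replicate 3 and 0 in the other 11, Ugt1a6b read 0.454 CPM in 1 flame lung and 0 elsewhere, and Slc7a5, an amino acid transporter, ran from 0.278 to 2.25 CPM. Ugt1a6a and Ugt1a6b are near-identical copies, and how probes divide reads between them is uncertain.

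The receptor and its partners did not pass the test. Of the 7 genes of the complex 6 were tested, 0 rose and 0 fell, and their median difference was −0.03 (−0.11 without flame replicate 3). Ahr itself ran from 16.96 to 29.2 CPM in 5 flame lungs, stood at 3.05 CPM in replicate 3, and ran from 18.6 to 33.96 CPM after smolder, a difference of −0.40 ± 0.35 that was −0.19 ± 0.19 without replicate 3. Arnt, its partner in DNA binding, ran from 145 to 323 CPM and from 128.1 to 208 CPM (0.36 ± 0.20), with replicate 3 the highest flame lung, and differed by 0.16 ± 0.14 without it. The chaperones Hsp90ab1 and Hsp90aa1 differed by −0.04 ± 0.19 and −0.02 ± 0.16, and their cochaperone Ptges3 by −0.25 ± 0.13. Ahrr, which the list also holds, is given above.

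Tm2d2, which encodes a membrane protein of the TM2 domain family, was also higher in every flame lung. The flame lungs held 12.1, 9.92, 86.2, 13.7, 24.8 and 21.5 CPM, and the smolder lungs 4.40, 5.22, 6.80, 5.35, 6.29 and 6.44 CPM. The smolder lungs lay close to the saline range of 2.01 to 6.08 CPM, while flame replicate 3 was more than 3 times as high as any other lung of the 12. The log2 difference was 2.27 ± 0.48 (4.82-fold, 95% interval 2.37 to 9.83) with an adjusted p of 0.619. Without replicate 3 it was 1.51 ± 0.25 (2.85-fold, adjusted p = 0.0643), and all 5 remaining flame lungs were still above all smolder lungs. DESeq2 (adjusted p = 0.00402) and the fit of all 4 h lungs (adjusted p = 0.00579) called it, with replicate 3 in the data. The gene was read by 1 probe, so no second probe stands beside it.

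At 24 h, in other animals, no gene passed the test between the phases, Cyp1a1 included. The labels give 6 lungs of each phase at this time, with 1 library of each on the first plate and 5 on the second. Cyp1a1 ran from 11.6 to 41.3 CPM after flame (median 18.4), from 3.42 to 14.3 CPM after smolder (median 10.7) and from 5.18 to 15.4 CPM after saline (median 8.16). The flame and smolder ranges overlapped, and the difference of 1.08 ± 0.45 had an adjusted p of 1. Of 12318 genes tested 0 were called (0%) by edgeR or by DESeq2, and 44 were at an unadjusted p under 0.05 in edgeR (0.357%). That share is far smaller than this threshold gives when nothing differs, so edgeR's test was conservative here. Its lack of calls does not show that the phases were alike at 24 h.

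The change in the phase difference between the times was tested in the 24 eucalyptus lungs together. Of 13234 genes 1 was called (0.00756%), and it was Cyp1a1, whose difference fell by 4.25 ± 0.57 on the log2 scale from 4 h to 24 h (adjusted p = 0.00196). Without flame replicate 3 of 4 h it fell by 4.26 (adjusted p = 0.00438). With its most abundant probe tested alone the drop was 3.91 and did not pass (adjusted p = 0.998). Cyp1b1 ran from 12.1 to 32.4 CPM after flame and from 3.88 to 14.6 CPM after smolder at 24 h, a difference of 1.22 ± 0.45, and its change between the times, −1.12 ± 0.57, did not pass. Nqo1 differed by 0.64 ± 0.94 at 24 h and Aldh3a1 by −0.54 ± 0.50.

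Tm2d2 at 24 h varied widely in both phases. The flame lungs held 44.3, 13.2, 20.2, 11.9, 91.8 and 37.3 CPM and the smolder lungs 5.61, 5.09, 8.49, 20.2, 44.4 and 30.5 CPM. The highest of each group, replicate 5, had counts in 10172 genes (flame) and 11690 genes (smolder), and smolder replicates 4 and 6, the next highest of that group, in 13317 and 13135 genes. Flame replicates 1 and 6, the next highest of the flame group, had counts in 14653 and 14724 genes. In the saline lungs of 24 h the median was 7.34 CPM and the highest 28.02 CPM. At 4 h the library with the highest level, flame replicate 3, was likewise the one with the fewest detected genes, 13734. In a fit with each library's detected-gene number as a covariate, the 4 h difference of Tm2d2 was 1.53 ± 0.26 (adjusted p = 0.111). Without the covariate it was 2.27 ± 0.48, and it was called in neither fit. Flame replicate 3 stands apart in that number, and leaving it out gave a like value, 1.51 ± 0.25, so these are not separate results. The part of the detected-gene number in the Tm2d2 levels was not tested.

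The phase difference of Cyp1a1 was larger for eucalyptus than the mean phase difference of the other 4 fuels. The same condensates were made from red oak, peat, pine needles and pine, each flaming and smoldering, with 6 lungs per group at 4 h. Of the pine needles smolder lungs 5 were on the second plate, which held no other 4 h smoke lung. The fit has a plate term, so the pine needles phase difference rests on the remaining smolder lung alone. In a fit of all 60 smoke lungs the eucalyptus difference exceeded the mean difference of the other 4 fuels for 2 of 13786 genes (0.0145%), Cyp1a1 and Tm2d2. For Cyp1a1 the excess was 4.76 ± 0.54 on the log2 scale (adjusted p = 8.37e-08), and it was 4.78 without flame replicate 3 (adjusted p = 1.70e-07). For Tm2d2 it was 2.62 ± 0.45 (adjusted p = 0.00211), and without that library it was 1.86 ± 0.39 and did not pass (adjusted p = 0.0815). The excess of Cyp1b1 was 1.75 ± 0.50, of Nqo1 1.45 ± 0.36 and of Aldh3a1 1.84 ± 0.48, none past the test.

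Within that fit each fuel's own phase difference was also read out. Genes called for flame against smolder numbered 3 for eucalyptus (0.0218% of 13786), 1 for pine (0.00725%), 0 for pine needles (0%, with 2436 genes or 17.7% at an unadjusted p under 0.05 in edgeR), 24 for peat (0.174%) and 45 for red oak (0.326%). The pine call was Cyp1a1, which differed by 2.89 ± 0.46 (adjusted p = 0.000868), beside 5.34 ± 0.51 for eucalyptus in the same fit. The phase differences of eucalyptus and pine were not tested against each other. Flaming pine gave 33.97 to 130.8 CPM, a mean of 84.97 ± 33.4 (SD, n = 6), and so lay wholly below flaming eucalyptus. For red oak and peat the Cyp1a1 differences were −0.92 ± 0.45 and −0.98 ± 0.45, neither past the test. For pine needles the Cyp1a1 difference was 1.32, with that 1 smolder lung behind it. Tm2d2 differed by 2.26 ± 0.38 for eucalyptus, −1.80 ± 0.41 for pine, −1.53 ± 0.40 for peat and 0.33 ± 0.38 for red oak. Of these 4 fuels it passed for eucalyptus alone in this fit. For pine needles the Tm2d2 difference was 1.55, again with 1 smolder lung behind it. Each lung given flaming eucalyptus had more Cyp1a1 than all 60 other 4 h lungs given smoke or saline, while 56 of those 60 were below the lowest flame lung for Cyp1b1 and 56 for Tm2d2.

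**Figure D4:**
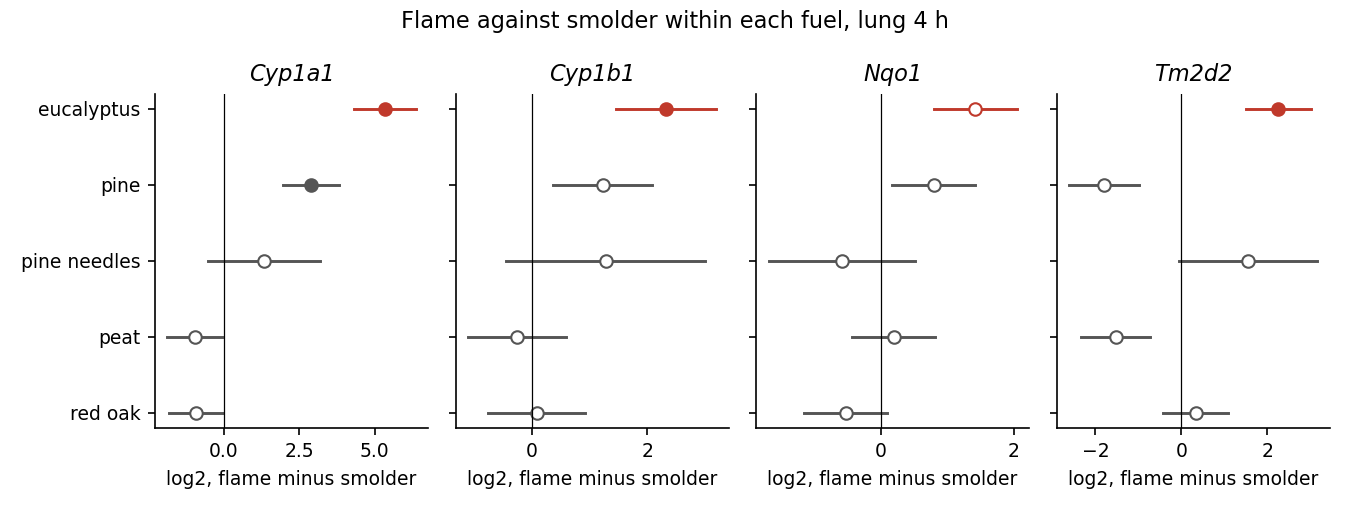
Log2 difference of flame minus smolder in 4 h lung for Cyp1a1, Cyp1b1, Nqo1 and Tm2d2 in each of the 5 fuels, from the fit of 60 lungs, with bars for the 95% interval and filled points where the adjusted p was under 0.05. Cyp1a1 passes for eucalyptus (5.34) and pine (2.89), and Cyp1b1 (2.33) and Tm2d2 (2.26) for eucalyptus. The pine needles values rest on the smolder lung of the first plate alone, because of the plate term.

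Nrf2 target genes did not pass the test with all 12 libraries. In the following lists, genes outside the preset names are given as examples and were chosen after their values were seen. Of 15 Nrf2 genes of the thioredoxin and glutathione systems 0 rose and 0 fell, 8 were higher, and the median was 0.15. Nqo1 belongs to this list as well as to the receptor's, and it was the 1 member called without flame replicate 3. Txnrd1, which reduces thioredoxin, ran from 234 to 676 CPM after flame and from 179 to 291 CPM after smolder. The highest flame value was replicate 3, the groups overlapped, and the difference of 0.52 ± 0.25 was 0.22 ± 0.16 without that library. The 3 probes of Txnrd1, each tested alone, differed by 1.42 ± 0.47, 0.63 ± 0.28 and −0.08 ± 0.21. Gclm, a subunit of the enzyme that starts glutathione synthesis, ran from 117.5 to 232 CPM and from 105.9 to 156 CPM. Its difference of 0.30 ± 0.17 was 0.15 ± 0.13 without replicate 3. The 3 probes of Gclm, each tested alone, differed by 0.86 ± 0.29, 0.92 ± 0.40 and, for the most abundant, −0.030 ± 0.19, none past the test. Of the 6 Nrf2 genes of heme and iron handling 0 passed, with a median of 0.17. Hmox1, heme oxygenase, ran from 7.04 to 31.7 CPM after flame and from 8.03 to 11.4 CPM after smolder (0.76 ± 0.33), with 2 flame lungs at 28.7 and 31.7 CPM and the other 4 between 7.04 and 12.7 CPM. Osgin1, an oxidative stress inhibitor of growth, differed by 0.85 ± 0.39, and by 0.34 ± 0.26 without replicate 3.

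Metal, xenobiotic and heat shock genes were likewise not called. Of 6 metallothionein and zinc genes 0 passed, and the median was 0.21. At an unadjusted p under 0.05 there were 3 of them (50.0%, beside 7.29% of all genes). Without flame replicate 3 there was 1, Slc39a10, beside 5.83% of all genes. Mt2, a metallothionein, ran from 68.3 to 236 CPM after flame (median 145) and from 34.05 to 146 CPM after smolder (median 68.8), with a saline median of 35.6. The ranges overlapped and the difference was 0.89 ± 0.37. Slc30a1, the zinc exporter of the cell membrane, differed by 0.62 ± 0.25 (0.31 ± 0.15 without replicate 3) and Slc39a10, a zinc importer, by −0.68 ± 0.19. None passed among 21 phase II and aldehyde enzymes (median −0.00), 10 lung P450 genes (median 0.23, with Cyp2s1 in this list too) and 14 heat shock genes (median 0.15). Cyp4b1, a P450 abundant in lung epithelium, had a median of 93.2 CPM after flame and 156 CPM after smolder, a difference of −0.75 ± 0.27.

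No inflammatory gene passed the test. Of 17 cytokine and chemokine genes 0 passed, 10 were higher and the median was 0.17. Cxcl1, which draws neutrophils, ran from 2.27 to 46.2 CPM after flame (median 12.6) and from 1.74 to 18.8 CPM after smolder (median 9.98), and the flame range enclosed all smolder lungs but the lowest. Its difference was 0.76 ± 0.57, with a 95% interval from −0.46 to 1.98, and without flame replicate 2, the highest lung, it was 0.12. Of 15 NF-kB feedback genes 0 passed and 12 were higher, with a median of 0.20. Socs3, a brake on cytokine signalling, had a median of 68.3 CPM after flame and 38.8 CPM after smolder (0.89 ± 0.27, or 0.63 ± 0.21 without replicate 3). Of 20 immediate early and AP-1 genes 0 passed and 17 were higher, with a median of 0.23. Fosl1, an AP-1 subunit, ran from 3.47 to 16.9 CPM and from 0.294 to 8.63 CPM, a difference of 1.20 ± 0.66 that was 0.80 ± 0.62 without replicate 3. Acute phase genes were mostly lower, 11 of 13 with a median of −0.31, and interferon-stimulated genes had a median of −0.18 over 16, with 0 called in either list.

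No clock gene passed the test. The median of the 15 tested was 0.17 and 5 (33.3%) were at an unadjusted p under 0.05, beside 7.29% of all genes. Arntl, which encodes the clock activator BMAL1, ran from 0 to 2.28 CPM after flame and from 1.91 to 5.89 CPM after smolder, with saline at 1.86 to 9.15 CPM. Flame replicate 3 held the 0, and the difference of −1.25 ± 0.49 was −1.03 ± 0.37 without it. Per1, a clock repressor that also answers to glucocorticoids, ran from 6.99 to 17.4 CPM and from 5.07 to 9.37 CPM (0.75 ± 0.25). Clock, the partner of BMAL1, differed by −0.90 ± 0.32 and Dbp, a clock output factor, by 0.53 ± 0.22. The labels used here give no clock time of exposure or sampling for these groups, and its part in the result was not tested.

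No marker of a cell type passed the test in any of the 15 marker lists, and several medians moved without flame replicate 3. All 8 type 2 cell markers were higher after flame, with a median of 0.27 (0.17 without that library), and Sftpc was highest in it, at 11367 CPM. Of 10 ciliated cell markers 9 were lower, with a median of −0.39 (−0.27 without it), and Sntn, a ciliary tip protein, differed by −0.74 ± 0.24. Alveolar macrophage markers had a median of −0.48 over 9 (−0.35 without it), and neutrophil markers of −0.21 over 10 (−0.32 without it), with summed levels of 345 to 1545 CPM after flame and 453 to 1682 CPM after smolder. Of the 10 neutrophil markers 5 were higher and 5 lower after flame, from −1.06 for S100a9 to 0.70 for Il1r2. Ly6g, a neutrophil surface protein and 1 of the lower ones, had a difference of −0.53 ± 0.18.

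Heart muscle transcripts varied between lungs of both groups. The 11 cardiac markers tested had a median of 0.41 (0.30 without flame replicate 3), 10 were higher, and their sum ran from 572 to 2324 CPM after flame, 752 to 2072 CPM after smolder and 293 to 2081 CPM after saline. Myh6, the alpha heavy chain of cardiac myosin, ran from 26.2 to 161 CPM after flame and from 34.3 to 100.7 CPM after smolder. The sums overlapped between the phases, and the part of heart tissue in the other differences was not tested. Pancreas and salivary gland markers summed to at most 10.6 CPM in any of the 12 lungs.

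**Figure D5:**
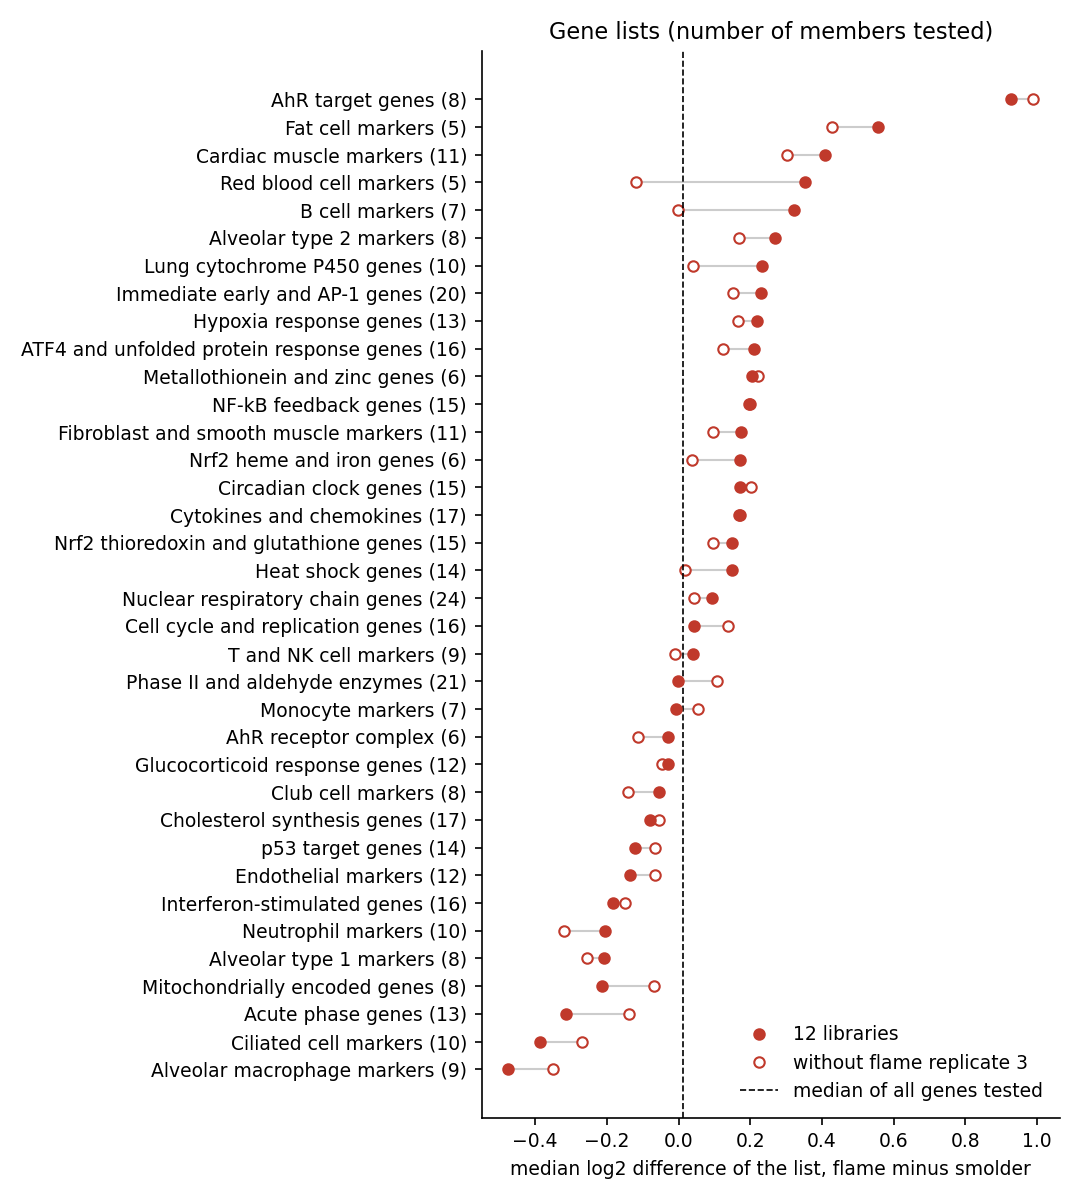
Median log2 difference of flame minus smolder over the tested genes of 36 gene lists with at least 5 tested genes, with all 12 libraries and without flame replicate 3, beside the median of all 12736 genes (0.01). The AhR target list stands at 0.93 with all libraries and at 0.99 without that library, and it is the only list that holds a called gene with all libraries.

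Zranb2, a splicing factor with zinc fingers, ran from 112.8 to 184 CPM after flame and from 76.04 to 116.5 CPM after smolder. Replicate 3 was the highest flame lung, and 1 flame lung lay within the smolder range. Its difference of 0.59 ± 0.16 was 0.48 ± 0.14 without that library, and it did not pass in either fit.

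A few further genes passed under 1 of the other tests and were chosen here after their values were seen. DESeq2 called Hmgb2, a chromatin protein of dividing cells, which ran from 65.9 to 143 CPM after flame and from 21.2 to 59.05 CPM after smolder, without overlap (1.34 ± 0.26 in edgeR, adjusted p = 0.619). It also called Bdkrb2, the bradykinin B2 receptor (1.42 ± 0.30), and Slc13a4, a sulfate transporter (16.3 ± 1.22 CPM against 10.4 ± 1.403 CPM, SD, n = 6 each). Atg12, a conjugate of the autophagy machinery, was the single gene it called lower, at 17.6 to 30.3 CPM after flame and 35.2 to 49.3 CPM after smolder, again without overlap (−0.77 ± 0.18). Selenbp2, a selenium-binding protein, stood at 408 to 487 CPM in 5 flame lungs and at 23.2 CPM in replicate 3, and at 134.8 to 271 CPM after smolder. With all libraries its difference was 0.81 ± 0.46, and without replicate 3 it was 1.06 ± 0.16 and passed (adjusted p = 0.0295).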

How the data were processed

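Gene expression was measured in mouse lung as counts per probe. The deposited file, made by the authors, holds whole-number counts for 30146 probe rows in 170 samples, and per the labels the assay was TempO-Seq, while a QuantSeq kit is named too, so the chemistry is stated in 2 ways. Bowtie and DESeq2 are the tools listed in the submitters' processing notes, and for their versions, their roles and the genome build the entry is: not given in the sources used here.

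Rows were summed per symbol to 21450 symbols. Each comparison was tested with edgeR 4.0.16 under R 4.3.3 (TMM, filterByExpr with a minimum of 10 counts, robust quasi-likelihood F test), with p-values adjusted by Benjamini-Hochberg over all genes tested, and a gene was called under 0.05. The 4 h comparison used its 12 libraries alone, and fits that include 24 h or other fuels had a plate term. Standard errors were derived from the log2 difference and its F statistic. CPM were scaled with TMM factors over all lung libraries. No pair of the 12 libraries repeated the same data, since each pair differed in at least 15455 genes. Totals of 5.97 to 7.53 M counts per library limit genes near 1 CPM to few counts each.

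The members, the 37 gene lists and the tests were chosen with earlier results of these data known. Named genes were the called genes of 5 CPM or more on average with the 12 largest rises and the 12 largest falls, up to 4 called members per list, up to 5 called genes for each further comparison, and 13 preset genes, called or not: Cyp1a1, Cyp1b1, Nqo1, Tm2d2, Zranb2, Mt2, Hmox1, Txnrd1, Gclm, Cxcl1, Fosl1, Arntl and Per1. All members of the receptor's target list are accounted for, and 1 gene of the receptor complex is not reported here. Other genes were chosen after their values were seen, and clone or model names were skipped. Alternatives were DESeq2 1.42.0 (size factors, Wald test), no filter beyond 1 count, each probe alone, each library left out and fits of all 4 h or all lung libraries. For the further comparisons they were also, where these applied, no plate term, no 24 h libraries of fewer than 13000 detected genes and no pine needles groups. Added after the data were seen were the detected-gene number as a covariate and the further comparisons without flame replicate 3. Scripts were tested on simulated data. Files were read with the R package data.table (version 1.17.8). Promoter sequences are RefSeq's for GRCm38.p6.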

Additional observations from a re-analysis of the deposited data

Results flagged for a closer look

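In 4 of the 30 sets of 6 lungs examined, 1 lung lay far from the other 5 by Dixon's ratio at the 95% level. Chance gives this in about 1 of 20 sets if the sets are independent and normally distributed. These sets share the same lungs, and flame replicate 3 gave most of the flags, so they are not separate events. Flame replicate 3 at 4 h held 86.2 CPM of Tm2d2 against 24.8 CPM in the next flame lung and 184 CPM of Zranb2 against 136.1 CPM, and it had counts in 13734 genes against 15218 in the next. Flame replicate 2 held 46.2 CPM of Cxcl1 against 15.7 CPM in the next. The phase difference of Cyp1a1 itself differed between the times, by −4.25 on the log2 scale for 24 h minus 4 h. The eucalyptus phase difference also differed from the mean of the other 4 fuels, by 4.76 for Cyp1a1 and by 2.62 for Tm2d2.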

How the results depend on the processing

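The single called gene of the 4 h comparison, Cyp1a1, was called under every alternative run. The number of called genes was 8 with DESeq2's Wald test, 2 with each probe tested alone (both of Cyp1a1), 3 with all 4 h lungs in the fit, 2 with all lungs, 2 with the detected-gene number as a covariate (added after the data were seen), and 1 to 4 when each library was left out in turn, the 4 being without flame replicate 3. The number of list genes called was 3 with DESeq2, 2 with all 4 h lungs, 2 with all lungs, 2 with the covariate, and 1 to 3 with each library left out. Against the other fuels 2 genes were called, and 1 without flame replicate 3. The change of Cyp1a1 between the times was −4.17 (adjusted p = 0.0115) without 24 h libraries of fewer than 13000 detected genes. With its most abundant probe alone it was −3.91 and did not pass (adjusted p = 0.998). Gclm alone of the named genes changed sign across these settings, to −0.030 with its most abundant probe alone. Only the most abundant probe of each gene was read there. The other 2 probes of Gclm read 0.86 ± 0.29 and 0.92 ± 0.40. A less abundant probe of Txnrd1 read −0.08 ± 0.21, beside 1.42 ± 0.47 and 0.63 ± 0.28 for its other 2 probes. The median of the AhR target list was 1.43 with no filter, 0.42 with all 4 h lungs and 0.41 with all lungs. DESeq2's size factors shifted the median gene by 0.003 on the log2 scale. No paired analysis was possible because the replicate numbers follow the order of the samples and pair no animals. Genes near 1 CPM rest on few counts per library, which limits what could be called there. The causes of the changes between settings were not tested.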
